A study of Mus musculus with 267 samples.

Results

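The regions described here were the open chromatin regions that HOMER, the program the authors used for annotation, placed between genes. Every deposited strain table lists 1000-bp windows centred on ATAC-seq peaks, the sites where a transposase could reach the DNA, and a row was a member when its annotation began with the word intergenic. There were 101640 such rows among 305626 rows in the 5 tables, with 21758 of 67742 in C57, 18269 of 54022 in BALB, 24218 of 68932 in NOD, 20142 of 60175 in PWK and 17253 of 54755 in SPRET. For comparison, 129533 rows were intronic and 54870 were promoter rows.

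Bone marrow-derived macrophages (BMDMs) came from young adult female mice of 5 inbred strains, written here as SPRET (SPRET/EiJ), BALB (BALB/cJ), PWK (PWK/PhJ), C57 (C57BL/6J) and NOD (NOD/ShiLtJ), and were grown from marrow with M-CSF. They were left untreated (basal) or given 20 ng/ml mouse recombinant interleukin-4 (IL-4) for 24 h, with no transgene, knockout or other agent in either group, and a C57 time course added 1 and 6 h. ChIP-seq of H3K27ac (20 libraries), RNA polymerase II (Pol II, 28 libraries), H3K4me2 (20) and H3K4me3 (20) gave 88 libraries in 40 groups of 2 to 4, each with 4691644 to 21973750 tags. The labels call them biological replicates without saying which animals they came from, so p-values measure the spread between these libraries. Macrophage identity was checked on H3K4me3 at promoters: 7 to 9 of 10 macrophage markers had a promoter region, with a summed level of 1637 to 3063 tags per library, against 0 to 1 of 8 T cell markers (0 to 2.44 tags), 2 to 4 of 8 neutrophil markers (20.5 to 72.5 tags) and none of the B cell and fibroblast markers, which had no promoter region in the tables and so no measured level. H3K27ac at the same promoters summed to 1442 to 4315 tags for the macrophage and 89.1 to 506 tags for the neutrophil markers. The macrophage marker Fcgr1 was low in SPRET, at 1.49 to 7.08 H3K4me3 tags.

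Open chromatin between genes in macrophages holds many enhancers, stretches of DNA that transcription factors bind and that act on promoters at a distance. Nucleosomes beside an active enhancer carry acetylated H3K27 and methylated H3K4, mostly as H3K4me2 rather than H3K4me3, and Pol II can be recruited there as well. PU.1, C/EBP and AP-1 factors open such sites in macrophages. IL-4 acts through its receptor on the latent factor STAT6, which enters the nucleus and binds DNA, and EGR2 and PPARγ, both induced by IL-4, act later.

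Of the named regions whose sequence was searched, those near Cish, Vwf, Pim3, Slc7a2, Usp18 and Tfrc had STAT6 letters in the central 200 bases, while those near Il6st, Ankrd46, Otos, Socs1 and 1700021F07Rik, where H3K27ac or Pol II also rose after IL-4, had none there. The central 200 bases of the first 4 are shown from the GRCm38 reference, plus strand, with the STAT6 letters (TTC and GAA separated by 4 bases) in capitals. This is the C57BL/6J sequence, and the alleles of the other strains were not read.
Cish, chr9:107308005-107308204: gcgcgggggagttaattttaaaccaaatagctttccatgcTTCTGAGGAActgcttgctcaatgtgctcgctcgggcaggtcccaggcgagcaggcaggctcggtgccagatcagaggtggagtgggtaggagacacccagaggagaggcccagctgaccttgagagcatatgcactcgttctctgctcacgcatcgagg
Vwf, chr6:125529717-125529916: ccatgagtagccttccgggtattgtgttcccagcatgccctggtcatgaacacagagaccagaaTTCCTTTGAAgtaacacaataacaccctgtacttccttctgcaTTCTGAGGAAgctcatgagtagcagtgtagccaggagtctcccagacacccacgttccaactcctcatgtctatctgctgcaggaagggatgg
Pim3, chr15:88855537-88855736: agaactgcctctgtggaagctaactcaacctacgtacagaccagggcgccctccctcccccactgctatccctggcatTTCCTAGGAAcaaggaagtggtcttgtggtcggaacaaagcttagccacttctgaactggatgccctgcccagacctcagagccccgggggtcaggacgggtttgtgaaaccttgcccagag
Slc7a2, chr8:40851088-40851287: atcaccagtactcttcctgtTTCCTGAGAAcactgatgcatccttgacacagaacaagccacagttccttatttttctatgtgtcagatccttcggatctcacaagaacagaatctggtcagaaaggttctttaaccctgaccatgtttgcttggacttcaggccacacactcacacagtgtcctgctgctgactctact
The central 200 bases of a pair of regions that lost H3K27ac are shown for contrast, with PU.1 (GAGGAAGT) and AP-1 (TGANTCA) letters in capitals in the first and C/EBP letters (TTGCNNCAA) in the second.
Mfsd2a, chr4:122924012-122924211: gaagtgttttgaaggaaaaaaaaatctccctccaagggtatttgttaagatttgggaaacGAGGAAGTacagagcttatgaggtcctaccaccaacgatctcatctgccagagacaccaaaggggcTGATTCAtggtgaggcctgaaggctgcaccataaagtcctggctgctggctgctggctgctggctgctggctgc
Nfkbiz, chr16:55754459-55754658: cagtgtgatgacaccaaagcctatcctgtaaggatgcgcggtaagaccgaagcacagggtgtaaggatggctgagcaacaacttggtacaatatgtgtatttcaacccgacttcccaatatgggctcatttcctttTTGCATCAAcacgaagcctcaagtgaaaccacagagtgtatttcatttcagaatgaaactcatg
Cish and Socs1 encode inhibitors of cytokine signalling that IL-4 itself induces, Vwf encodes von Willebrand factor, Pim3 a serine/threonine kinase and Slc7a2 a transporter of cationic amino acids including arginine. Mfsd2a encodes a lipid transporter and Nfkbiz an IκB family protein needed for a set of inflammatory genes. A gene name beside an intergenic region gives only the nearest protein-coding transcript start in GENCODE, and contact between region and gene was not measured.

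In the 5 tables, 31.5 to 35.1% of all regions were intergenic. Their median distance to the nearest protein-coding start was 20.2 to 22.5 kb, 68.3 to 70.3% lay beyond 10 kb and 12.3 to 16% beyond 100 kb, and 63.4 to 65.6% lay upstream of that start. The label intergenic did not always hold in the GENCODE annotation: 20.1 to 21.3% of the regions had their centre inside some annotated gene, and 8.80 to 9.79% inside a protein-coding gene. Their GC content of 49.2 to 50.7% and mean of 3.19 to 3.65 CpG sites in the central 200 bp were below the 63.7 to 64.5% and 16.1 to 16.5 of promoter regions. Both strands were searched. PU.1 letters were found in 9.95 to 13% of the central windows, AP-1 letters in 18.7 to 22.7% and STAT6 letters in 5.55 to 6.27%. TTGCNNCAA, the string searched for C/EBP, was found in 1.80 to 2.11%. At promoters the shares were 3.33 to 3.81% (PU.1), 4.1 to 4.7% (AP-1) and 2.897 to 3.064% (STAT6). EGR letters (GCGTGGGNG) went the other way, with 0.586 to 0.739% of intergenic and 2.35 to 2.65% of promoter windows. Intronic regions were close to intergenic ones in these respects, with a GC content of 49.6 to 51.4% and PU.1 letters in 9.83 to 13.1%.

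Some genes had many intergenic regions around them. The genes that were nearest to the most intergenic regions were Irf2bp2 (45 regions) and Id2 (43) in C57, Id2 (41) in BALB, Adgrl2 and Klf6 (48 each) in NOD, Zmiz1 (42) in PWK and Cwc22 (61) in SPRET. Maf, a transcription factor of mature macrophages, was among the first 8 genes in all 5 strains, with 31 to 45 regions.

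Intergenic regions, like intronic ones, were shared less often between strains than promoters. A region was matched when the centres in 2 tables were mutual nearest neighbours within 500 bp. Between 34.7 and 48.8% of a strain's intergenic regions had a match in all 4 other tables, against 37.2 to 49.8% of its intronic and 70.6 to 84.4% of its promoter regions, and 3.82 to 18.9% had a match in none. In single pairs, 49.1% (NOD regions in SPRET) to 90.7% (BALB regions in NOD) of intergenic regions were matched. Of 29462 regions matched in all 5 strains, 8367 were intergenic in every table, and these are the regions tested for an IL-4 effect. They are not fully independent, since 644 of them (7.70%) lay within 1000 bp of another.

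Per region, intergenic sites carried less of every mark than promoters, and the gap was widest for H3K4me3. The median H3K27ac of an intergenic region was between 15.6 and 27.9 tags (per 10000000 library tags) in the 10 basal libraries, with a median library at 19.4, where the promoter median was 103. Basal Pol II had a median of 4.82 to 9.68 tags over 15 libraries (median library 6.82), against 86.3 at promoters. For H3K4me2 the basal range was 26.36 to 39.99 tags (median library 34.8), against 74.4 at promoters, and for H3K4me3 it was 1.95 to 3.81 tags (median library 2.63), against 412 at promoters. In basal cells the lowest promoter median of any library lay above the highest intergenic median for each mark. At 24 h of IL-4 the intergenic medians were 14.4 to 28.6 tags for H3K27ac, 4.55 to 10.7 for Pol II, 17.6 to 40.5 for H3K4me2 and 2.69 to 4.83 for H3K4me3, and all 4 ranges overlapped the basal ranges.

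**Figure D1:**
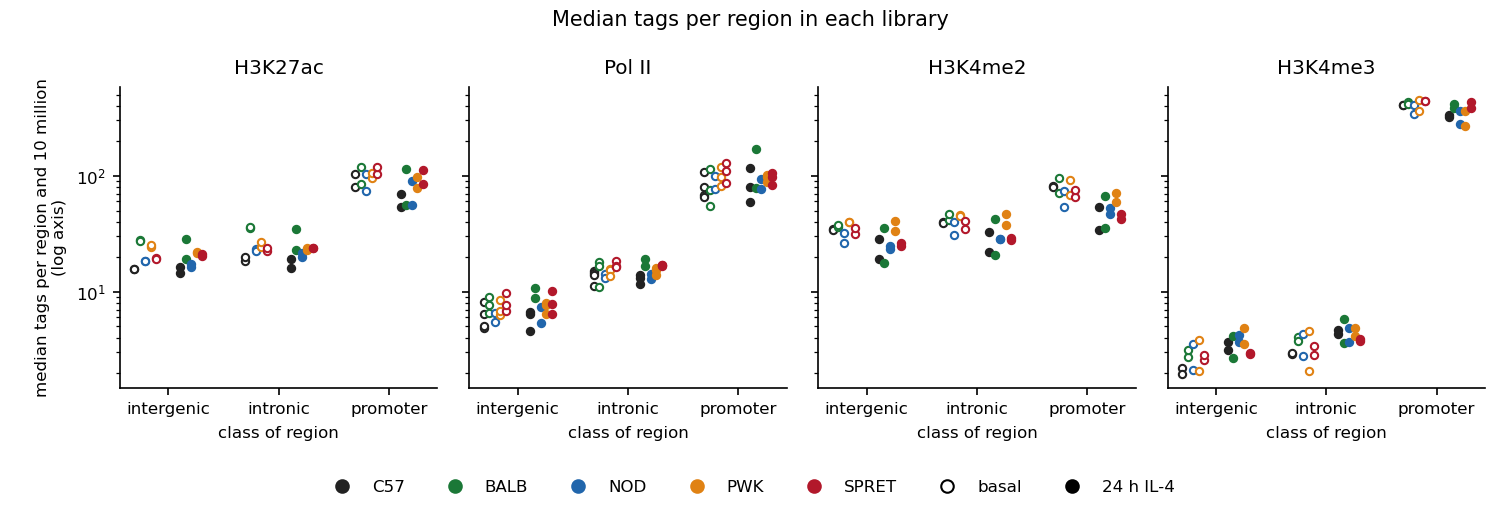
Median tags per region, per 10000000 library tags (log axis), for intergenic, intronic and promoter regions, 1 point per library, coloured by strain, open for basal and filled for 24 h IL-4. Intergenic regions lie close to intronic ones and below promoters, and the gap is widest for H3K4me3, with basal median libraries at 2.63 and 412 tags.

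A small set of intergenic regions carried as much H3K4me3 as a promoter. In basal cells 266 intergenic regions in C57, 203 in BALB, 248 in NOD, 210 in PWK and 173 in SPRET were at or above the median promoter of their strain, or 1.00 to 1.22%. An annotated transcript start of any gene type lay within 1 kb of 63.9 to 68.8% of these, against 6.85 to 7.63% of the other intergenic regions. Their median H3K27ac was 163 to 195 tags (other intergenic regions 16.3 to 27.9), and their GC content was 63.4 to 66.0% (others 49.0 to 50.5%).

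The first comparison asked how 24 h of IL-4 changed each mark over the 5 strains, by limma on log2(tags + 1) with strain as a factor and a Benjamini-Hochberg adjusted p of 0.05 over all 29462 matched regions. H3K27ac rose at 912 of the 8367 intergenic regions (10.9%; 8.01% of all matched regions rose) and fell at 3014 (36%; 32.6% of all). Pol II rose at 781 (9.33%; 7.77% of all) and fell at 973 (11.6%; 8.46% of all). H3K4me2 rose at 197 (2.35%; 1.85% of all) and fell at 5398 (64.5%; 74.4% of all), and H3K4me3 rose at 572 (6.84%; 5.27% of all) and fell at 485 (5.80%; 17.6% of all). With the replicate number as a block, H3K27ac rose at 1219 and fell at 3776 intergenic regions (11.1 and 45.6% of all matched regions), Pol II at 999 and 1788 (10.2 and 17.1%), H3K4me2 at 230 and 5629 (2.09 and 76.3%) and H3K4me3 at 893 and 826 (8.17 and 29.9%).

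The excess of falls over rises in H3K27ac and H3K4me2 depended on the scaling. The tables are scaled to total tags, and fewer tags lay in the listed regions after IL-4: the median library had 56.9% of its H3K27ac tags in regions in basal cells and 42.6% at 24 h, 33.7 and 24.8% for H3K4me2, 66.40 and 59.98% for H3K4me3, and 32.0 and 31.8% for Pol II. The median log2 fold change over all matched regions was accordingly -0.31 for H3K27ac, -0.53 for H3K4me2, -0.10 for H3K4me3 and 0.01 for Pol II, and over the intergenic ones it was -0.31, -0.48, 0.10 and -0.06. With median-ratio scaling, which sets the typical region to no change, H3K27ac rose at 1533 and fell at 1662 intergenic regions (15.9 and 15.5% of all matched regions), Pol II at 861 and 1156 (9.71 and 10.4%), H3K4me2 at 666 and 83 (5.91 and 1.4%) and H3K4me3 at 522 and 93 (5.31 and 2.37%). Directions for whole groups of regions hold relative to this shift, and whether acetylation fell in the whole genome cannot be told from these values.

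The marks were compared at single regions, and the shares over all intergenic regions are those given above. Of the 912 intergenic regions with higher H3K27ac, Pol II was higher at 502 and lower at 1, H3K4me3 was higher at 298, and H3K4me2 was higher at 177 and lower at 123. Of the 3014 with lower H3K27ac, Pol II was lower at 927 and higher at 3, and H3K4me2 was lower at 2788. Across the 8367 regions, which are not replicates, the fold changes of H3K27ac and Pol II had a Pearson r of 0.82. The other pairs of marks had 0.70 (H3K27ac and H3K4me2), 0.56 (H3K4me2 and H3K4me3), 0.52 (Pol II and H3K4me2), 0.49 (H3K27ac and H3K4me3) and 0.45 (Pol II and H3K4me3).

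The largest rise of H3K27ac was at chr9:107307605-107308605, 8.95 kb downstream of the start of Cish. H3K27ac there was 0 to 8.58 tags (median 3.04) in the 10 basal libraries and 21.4 to 149 (median 75.8) in the 10 IL-4 libraries. Every IL-4 library was above every basal library, and the log2 fold change was 4.19 ± 0.36 (SE; limma adjusted p = 6.2e-09). Pol II at the same region went from a median of 0.70 to 27.8 tags (3.66 ± 0.26, limma adjusted p = 1.8e-12), H3K4me2 from 4.16 to 31.0 (2.66 ± 0.23) and H3K4me3 from 0.66 to 3.43 (1.63 ± 0.30). In C57 it was a peak of open chromatin at 24 h but not in basal cells.

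The region 17 kb upstream of Vwf, chr6:125529317-125530317, had 3.18 to 15.7 H3K27ac tags (median 6.83) in basal cells and 95.1 to 208 (median 139) after IL-4. Its log2 fold change was 4.03 ± 0.20. The other 4 of the 6 largest rises lay 70.3 kb upstream of 1700021F07Rik (3.96 ± 0.27), 56.6 kb upstream of Il6st, which encodes the shared receptor subunit gp130 (3.94 ± 0.28), 44.8 kb downstream of Ankrd46 (3.77 ± 0.26) and 63.8 kb upstream of Otos (3.74 ± 0.28). At all 6 regions the IL-4 libraries stood above the basal libraries within each of the 5 strains. H3K4me2 separated them: at the 1700021F07Rik region it was already at a median of 38.8 tags in basal cells and 44.5 tags after IL-4 (0.04 ± 0.18, limma adjusted p = 0.835), whereas at the Il6st region it rose from 4.23 to 15.9 tags (1.27 ± 0.24).

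The largest falls of H3K27ac were smaller than the largest rises. At chr4:122923612-122924612, 35.9 kb downstream of the Mfsd2a start, H3K27ac was 63.1 to 191 tags (median 124) in basal cells and 11.03 to 77.54 (median 21.6) after IL-4. The log2 fold change was -2.42 ± 0.21 (limma adjusted p = 6.6e-09), and the groups overlapped only across strains, the highest IL-4 libraries being those of SPRET at 45.8 and 77.5 tags. The next fall, named for Cap1 (-2.41 ± 0.26), was the neighbouring window 1.1 kb away, so the pair is 1 locus. A region 9.31 kb upstream of Gng2, a G protein subunit, went from a median of 433 to 73.4 tags (-2.32 ± 0.20), a region 64.0 kb downstream of Nfkbiz from 122 to 22.4 tags (-2.32 ± 0.22), a region 152 kb downstream of Maf from 41.5 to 7.19 tags (-2.25 ± 0.27) and a region 9.41 kb upstream of Tubgcp5 from 143 to 33.8 tags (-2.22 ± 0.26). Under median-ratio scaling the 6 falls were -1.90 to -2.09, and H3K4me3 did not pass the test at 5 of the 6, the Gng2 region being the exception (-0.43 ± 0.14).

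**Figure D2:**
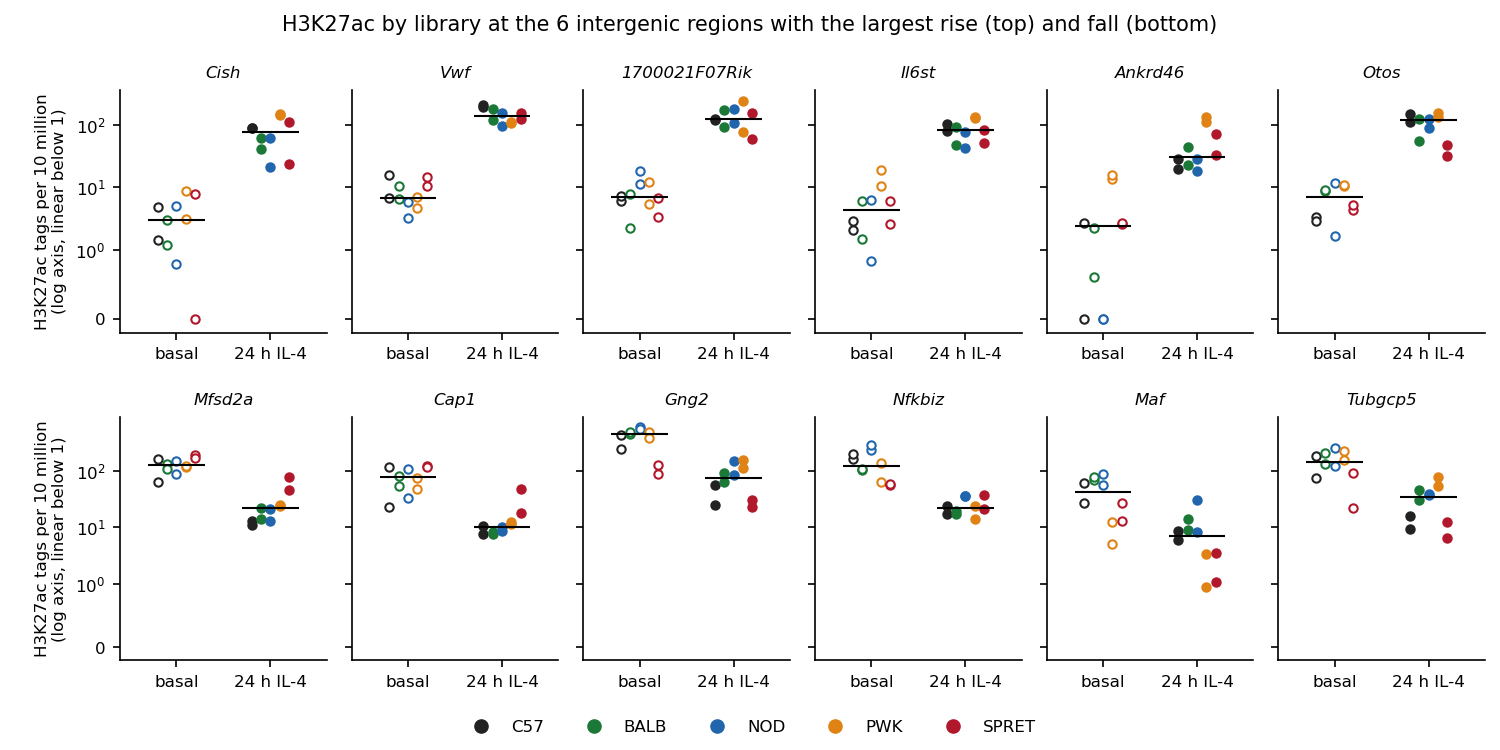
H3K27ac tags per 10000000 library tags (log axis, linear below 1) in each of 20 libraries at the 6 intergenic regions with the largest rise (top) and the largest fall (bottom), coloured by strain, with the median as a line. At Cish every IL-4 library (21.4 to 149 tags) is above every basal library (0 to 8.58 tags), whereas at Mfsd2a the groups touch through SPRET.

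Pol II gave its largest rise 4.32 kb downstream of the Socs1 start, at chr16:10780721-10781721. Pol II was 0.76 to 19.2 tags (median 10.7) in 15 basal libraries and 60.02 to 976 (median 260) in 13 IL-4 libraries, a log2 fold change of 4.92 ± 0.27 (limma adjusted p = 2.2e-15). H3K27ac there stayed low in absolute terms, at a median of 0.74 tags in basal cells and 17.8 after IL-4 (3.42 ± 0.32), below the 19.8 tags of the median intergenic region at 24 h. Near Pim3, at chr15:88855137-88856137, Pol II went from a median of 2.9 to 42.0 tags (3.47 ± 0.28) and H3K27ac from 6.63 to 110 (3.70 ± 0.21).

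The largest fall of Pol II was at a region that GENCODE places inside Cx3cr1, the fractalkine receptor gene of monocytes and macrophages, though its nearest start is that of Xirp1. Pol II there was 26.5 to 110 tags (median 50.0) in basal cells and 3.33 to 24.8 (median 12.9) after IL-4, with no overlap (-2.15 ± 0.21). A region 25.1 kb from 6030408B16Rik fell by 1.99 ± 0.22 on the log2 scale. The third lay 5.91 kb from the start of Mir146, a microRNA gene that restrains inflammatory signalling, and 54.4 kb from Pttg1. It fell by 1.91 ± 0.46 (limma adjusted p = 0.0026), with basal libraries at 34.3 to 258 tags and IL-4 libraries at 1.28 to 110, and the groups were apart in 1 of 5 strains.

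For H3K4me2, the largest rises were again at Cish and Socs1 (2.11 ± 0.25), followed by a region 8.94 kb downstream of Hnrnpll (2.01 ± 0.28). Its largest falls were modest and partly the common shift. The Maf region had -1.14 ± 0.20 (-0.64 under median-ratio scaling), a region 2798 bp from Mir21a and 5.52 kb from Vmp1 had -1.13 ± 0.17 (-0.62), and a region 1.13 kb from Marcksl1 had -1.05 ± 0.19, which did not pass under median-ratio scaling (-0.55, adjusted p = 0.124). At the Mir21a region Pol II was higher after IL-4 (0.79 ± 0.20, limma adjusted p = 0.0043), from a median of 888 to 1336 tags, so H3K4me2 and Pol II went opposite ways.

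For H3K4me3, a region 5.15 kb upstream of Tpcn2 rose from a median of 8.86 to 71.3 tags (2.72 ± 0.29), the Socs1 region from 0.67 to 6.49 (2.15 ± 0.28) and a region 70.1 kb upstream of Lrp12 from 5.53 to 34.8 (2.15 ± 0.24). The falls were at sites with clear basal H3K4me3. They were a region 1.11 kb downstream of the Zkscan17 start, from 29.8 to 5.92 tags (-1.84 ± 0.34), a region 52.5 kb from Itpr1, from 106 to 30.2 (-1.72 ± 0.17), and a region 106 kb from A730009L09Rik, from 133 to 44.5 (-1.45 ± 0.16). At the Itpr1 region H3K27ac moved the other way, from a median of 133 to 336 tags (1.24 ± 0.25, limma adjusted p = 0.00038).

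Gene lists put these regions in groups, to be read beside the 10.9% of all matched intergenic regions at which H3K27ac rose and the 36% at which it fell (Pol II 9.33 and 11.6%). Of 100 intergenic regions nearest to 28 genes of the IL-4 programme, H3K27ac rose at 36 and fell at 13, with a median log2 fold change of 0.38 against -0.31 over all intergenic regions, and Pol II rose at 48 and fell at 10. The rises included Cish, Socs1, Slc7a2 (3.02 ± 0.27; 11.2 kb upstream, from a median of 32.4 to 241 tags) and Flt1, a receptor of vascular growth factors (2.97 ± 0.31; from 4.74 to 37.6 tags). All 3 regions nearest to Arg1, the arginine-consuming enzyme arginase 1, rose (1.40 to 2.44), as did all 3 nearest to the chemokine gene Ccl17 (1.05 to 1.51) and 5 of 7 nearest to the transcription factor gene Batf3. The 13 falls were at Egr3 (4 of 4 regions), Ch25h (4 of 5), Alox15 (3 of 3), Il4ra (1 of 1) and Klf4 (1 of 18, where 6 rose). Under median-ratio scaling 54 of the 100 rose and 10 fell.

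Of 66 regions nearest to 23 inflammatory genes, H3K27ac rose at 7 (10.6%) and fell at 28 (42.4%), close to the shares over all intergenic regions, with a median of -0.20, and under median-ratio scaling 12 rose and 19 fell. Nfkbiz had 8 regions and all 8 fell, by -0.72 to -2.32. Both regions nearest to Cd14, the lipopolysaccharide co-receptor gene (-2.06 ± 0.22 at the larger, from a median of 252 to 75.5 tags), and both nearest to Tlr2 (-1.51 and -1.63) fell, whereas 2 of 4 nearest to Il1a and 1 nearest to the scavenger receptor gene Marco (1.22) rose. Only 15 regions lay nearest to 8 interferon response genes. Of these, 1 rose (6.67%), 15.8 kb upstream of Usp18 (1.22 ± 0.23), and 4 fell (26.7%), at Oasl1 (-1.33 ± 0.22 and -0.95 ± 0.33) and Irf8 (-0.93 ± 0.17 at the larger). The -0.95 at Oasl1 did not pass under median-ratio scaling (-0.62, adjusted p = 0.113).

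Of 81 regions nearest to 22 genes of macrophage identity, H3K27ac rose at 5 (6.17%) and fell at 46 (56.8%), with a median of -0.59. Under median-ratio scaling 8 rose and 31 fell, where 1662 of all 8367 intergenic regions fell. Maf accounted for 16 of the falls among its 21 regions. Regions 258 and 203 kb upstream of Runx1 fell by 1.99 ± 0.42 and 1.89 ± 0.18 on the log2 scale, while 2 of its 13 regions rose. All regions nearest to Itgam (4), Adgre1 (3), Csf1r (2) and Lyz1 (2) fell, at median log2 fold changes of -0.76, -0.68, -0.69 and -1.29, where all intergenic regions had -0.31. Other members of the list differed. Of 4 regions nearest to Cebpa 0 were called, and 1 of 4 nearest to Ctss fell. For Cebpb 1 of 3 regions rose and 0 fell, and for Trem2 1 of 2 rose and 0 fell. Of 33 regions nearest to 15 lipid and cholesterol genes, 2 rose (6.06%) and 13 fell (39.4%), near the shares over all intergenic regions, and 4 rose and 5 fell under median-ratio scaling. The cholesterol exporter gene Abca1 had 4 falls among 5 regions (-1.37 ± 0.20 at the largest), and the single region of the fatty acid binding protein gene Fabp4, which also stands in the IL-4 programme list, rose (1.01 ± 0.21).

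STAT6 letters were more frequent at regions with higher than with lower H3K27ac. They stood in the central 200 bp of 166 of the 912 regions with higher H3K27ac (18.2%), of 96 of the 3014 with lower H3K27ac (3.19%), of 514 of all 8367 matched intergenic regions (6.14%) and of 1426 of all 29462 matched regions (4.84%). Among the 525 regions that rose by a log2 fold change of 1 or more the share was 22.5%. With the calls of median-ratio scaling it was 14.5% of 1533 higher and 3.13% of 1662 lower regions. PU.1 letters went the other way, with 11.7% of higher and 15.9% of lower regions. AP-1 letters were at 25 and 22.5%, and TTGCNNCAA, the string searched for C/EBP, at 2.52 and 1.96%. Letters of the DR1 motif of nuclear receptors were found in 2 of the higher and 0 of the lower regions. These shares are descriptions of the reference sequence, and a match is not a bound site.

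Factor binding was read from C57 peaks. The deposited peak lists placed a STAT6 peak at 42.0% of the regions with higher H3K27ac in basal cells and at 82.1% at 24 h, whereas regions with lower H3K27ac went from 85.7 to 83.7% and all matched intergenic regions from 66.5 to 74.9%. EGR2 peaks went from 23.2 to 67.3% of higher regions, from 13.3 to 48.3% of lower regions and from 14.7 to 49.1% of all. PPARγ peaks went from 10.1 to 68.4%, from 26.2 to 68.6% and from 19.1 to 64.9%. PU.1 peaks were already at 69.5% of higher and 94.4% of lower regions in basal cells, and at 85.5 and 92.6% at 24 h. Regions with higher H3K27ac thus began with fewer STAT6, PPARγ, C/EBPβ and PU.1 peaks than regions with lower H3K27ac, and with more EGR2 peaks. The lists themselves grew with IL-4, from 30589 to 39537 peaks for STAT6, 8437 to 29407 for EGR2, 7627 to 39088 for PPARγ and 85916 to 90308 for PU.1, and the part of this growth in the shares was not tested.

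**Figure D3:**
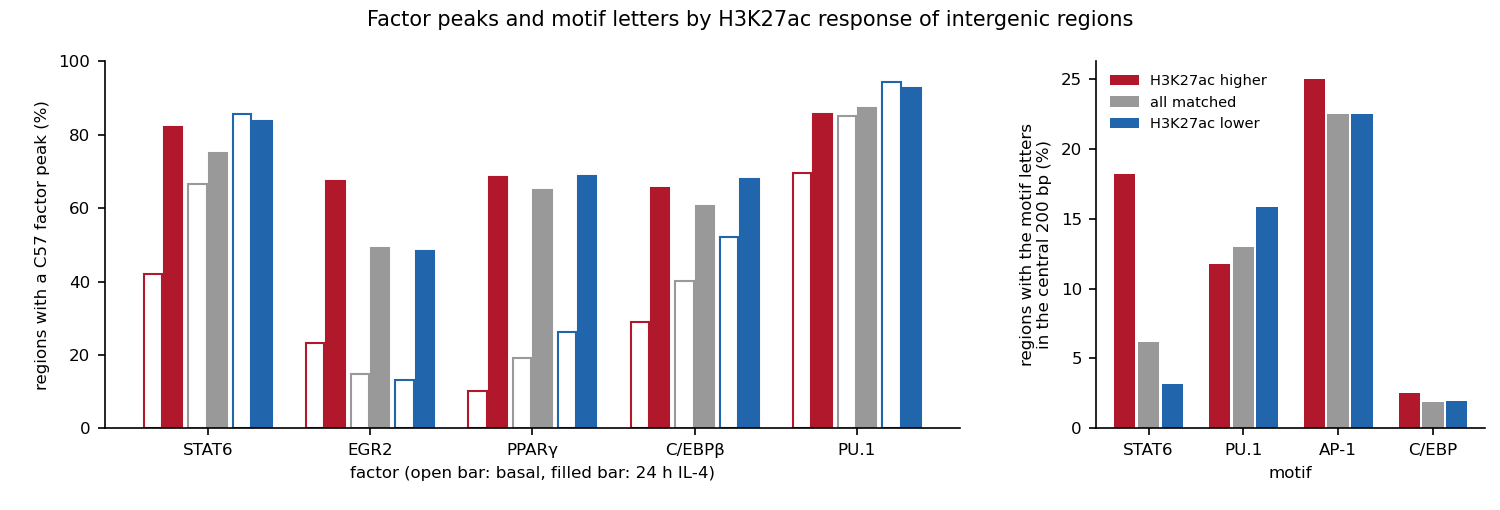
Left, percent of intergenic regions with a C57 peak of each factor, open bars for basal and filled bars for 24 h IL-4, for regions with higher H3K27ac (red), all matched intergenic regions (grey) and regions with lower H3K27ac (blue). Right, percent of the same regions with the letters of each motif in the central 200 bp, where STAT6 letters are in 18.2% of higher and 3.19% of lower regions. The string drawn for C/EBP is TTGCNNCAA.

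The balance between intergenic and promoter regions was compared per library as the log2 ratio of their summed tags within each strain. This ratio does not depend on library scaling, but it can depend on how many tags fall outside the listed regions. The median library had 33.7% of its H3K4me2 tags in regions in basal cells and 24.8% at 24 h (H3K4me3 66.40 and 59.98%). Whether this moved the ratio was not tested. For H3K4me2 the ratio was higher after IL-4 by 0.22 on average and in 5 of 5 strains (exact two-sided permutation within strains, p = 0.0044, Benjamini-Hochberg over the 4 marks 0.017). The shifts were 0.44 in C57, 0.26 in BALB, 0.09 in NOD, 0.09 in PWK and 0.24 in SPRET. For H3K4me3 the shift was 0.15, higher in 4 of 5 strains with BALB at -0.03 (exact permutation p = 0.024, adjusted 0.048), and it did not pass when same-numbered libraries were paired (exact sign-flip adjusted p = 0.051, 8 of 10 pairs higher). H3K27ac (0.04, exact permutation p = 0.592, 2 of 5 strains higher) and Pol II (-0.03, exact permutation p = 0.777, 3 of 5 strains higher) showed no shift beyond the spread of libraries. The H3K4me3 shift also lost its call in 13 of 20 fits that left out 1 library. The H3K4me2 shift was 0.10 and did not pass when intronic regions took the place of promoters, and it was 0.09 in the libraries numbered 1 and 0.36 in those numbered 2.

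**Figure D4:**
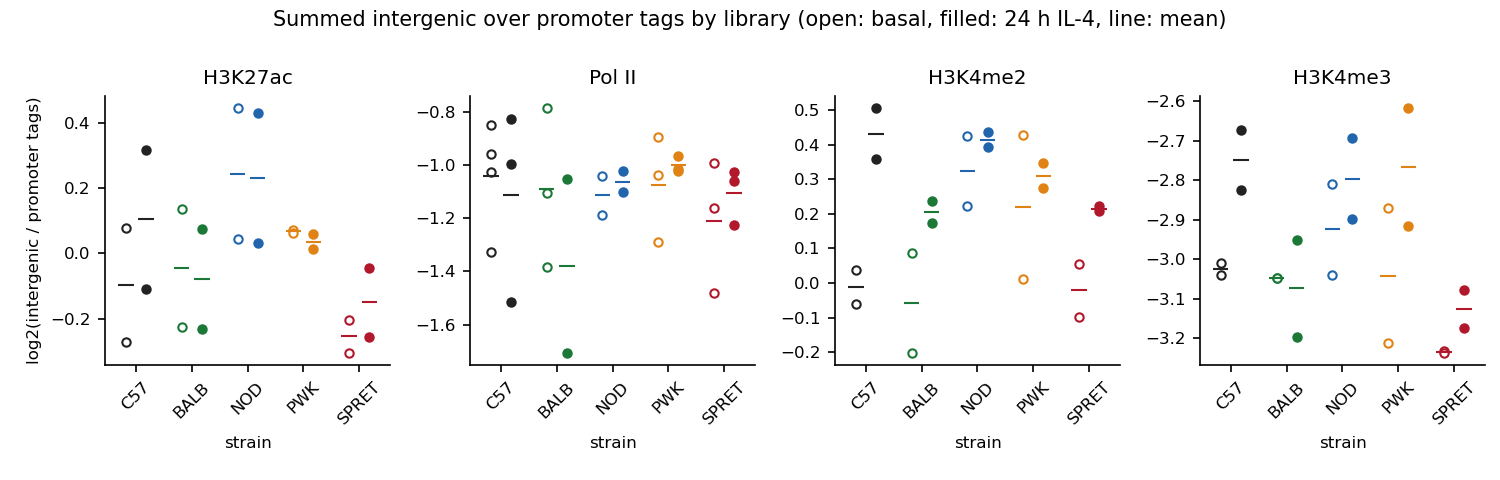
Log2 ratio of summed intergenic over summed promoter tags in each library by strain and mark, open for basal and filled for 24 h IL-4, with the mean of each group as a line. The filled mean is above the open mean in 5 of 5 strains for H3K4me2 and in 4 of 5 for H3K4me3.

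The C57 time course held 25569 intergenic regions in a separate table, with 2 H3K27ac libraries at each time and 1 to 4 Pol II libraries, and gave values without a test. Mean H3K27ac per intergenic region was 73.7 and 71.4 tags in basal cells, 47.7 and 25.1 at 1 h, 55.7 and 54.2 at 6 h and 52.4 and 50.2 at 24 h. The second 1 h library was the lowest of the 8 and stood apart from its partner. The Nfkbiz region shown above had 157 and 185 tags in basal cells, 20.87 and 11.02 at 1 h and 23.8 and 17.1 at 24 h. Its level at 1 h was thus close to that at 24 h. The Cish region had 39.4 and 19.6 tags at 1 h, against 4.75 and 1.43 in basal cells, 87.0 and 105 at 6 h and 89.1 and 89.3 at 24 h. The Il6st region had 13.9 and 4.47 tags at 1 h, 36.2 and 48.7 at 6 h and 78.9 and 105 at 24 h, so its level was higher at 24 h than at 6 h.

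The IL-4 effect on H3K27ac was also fitted within each strain, with 2 libraries a group. At the same threshold over each whole table, limma called H3K27ac higher at 0 and lower at 0 intergenic regions of C57 (0% of all its regions called). BALB had 422 higher and 170 lower (2.26%), NOD 19 higher and 0 lower (0.0566%), PWK 134 higher and 12 lower (0.535%), and SPRET 256 higher and 45 lower (1.19%). At an unadjusted p under 0.05 there were 5261 intergenic regions in C57, 2914 in BALB, 3776 in NOD, 2789 in PWK and 2500 in SPRET. Libraries with the same number deviated together, and with the number as a block limma called more in each strain. For C57 it called 2353 higher and 5674 lower (38% of all its regions), for BALB 915 and 1004 (7.67%), for NOD 1909 and 3728 (19.9%), for PWK 1131 and 1361 (9.39%), and for SPRET 935 and 558 (7.03%). Single libraries moved the unblocked counts, to 0 in NOD, PWK and SPRET without either 24 h library and to 1694 in BALB without 24 h replicate 1. In C57, DESeq2 called 959 without the block and edgeR 0.

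By the fold rule of the study, at least 2.5-fold in both H3K27ac and Pol II with at least 16 and 8 tags, here computed on group means plus a pseudocount of 1 and carrying no test, 318 intergenic regions were induced in C57 (0.936% of all its regions passed), 432 in BALB (1.48%), 455 in NOD (1.29%), 375 in PWK (1.32%) and 231 in SPRET (0.873%). With a pseudocount of 5 there were 170, 273, 276, 224 and 129. Repressed were 408 (1.14%), 144 (0.507%), 279 (0.807%), 182 (0.548%) and 63 (0.221%). Intergenic regions made up 47.1 to 53.9% of all induced and 50.2 to 55.2% of all repressed regions. By class, 1.34 to 2.36% of intergenic, 0.770 to 1.36% of intronic and 0.332 to 0.415% of promoter regions were induced.

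Whether the IL-4 effect differed between strains was tested as the strain by IL-4 interaction at the matched regions. Without a replicate block, no intergenic region passed for any mark, and edgeR also called 0. Of all matched regions, limma called 0, 0, 0 and 0.00339% for H3K27ac, Pol II, H3K4me2 and H3K4me3. An unadjusted p under 0.05 was found at 160, 210, 57 and 198 intergenic regions. Each count is below the 0.05 share of 8367 that chance alone would give. This fit leaves out the shared deviation of same-numbered libraries, so its 0 does not show that the strains responded alike. With the replicate number as a block, 219 intergenic regions passed for H3K27ac (1.86% of all), 5 for Pol II (0.0305%), 1 for H3K4me2 (0.00339%) and 18 for H3K4me3 (0.241%).

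One of the 5 regions with the smallest p of the strain difference for H3K27ac lay 40.3 kb upstream of Tfrc, the transferrin receptor gene, and its reference sequence has STAT6 letters 52 bp before the centre.
Tfrc, chr16:32568503-32568702: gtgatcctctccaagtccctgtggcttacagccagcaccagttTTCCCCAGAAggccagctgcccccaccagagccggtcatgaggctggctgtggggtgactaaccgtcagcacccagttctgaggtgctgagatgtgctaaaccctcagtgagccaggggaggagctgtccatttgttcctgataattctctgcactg
H3K27ac there rose from 30.5 and 14.3 to 173 and 91.9 tags in C57, from 68.3 and 29.8 to 244 and 99.6 in BALB, and from 40.7 and 22.2 to 237 and 114 in NOD. It was 24.0 and 26.6 against 22.2 and 25.8 tags in PWK, and 42.7 and 21.1 against 19.4 and 11.9 in SPRET. The log2 fold changes were 2.54 ± 0.58 in C57, 1.76 ± 0.58 in BALB, 2.41 ± 0.58 in NOD, -0.08 ± 0.58 in PWK and -0.94 ± 0.58 in SPRET. The adjusted p of the limma interaction was 1.00, and 4.4e-12 with the replicate block. Pol II at 24 h was 10.3 to 56.3 tags in C57, BALB and NOD and 3.69 to 10.8 in PWK and SPRET, after basal levels of 1.61 to 42.4 in all 5 strains, where 1 C57 library (42.4) stood apart. Whether this stretch differs in sequence between the strains was not read.

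A region 1.74 kb upstream of Mrgpre split the strains the same way, with 33.8 to 62.8 H3K27ac tags after IL-4 in C57, BALB and NOD and 2.86 to 7.05 in PWK and SPRET, from basal levels of 1.72 to 8.73 in all 5 strains (block adjusted p = 1.1e-05). At a region 6.26 kb upstream of Wdr1, IL-4 libraries reached 58.7 and 44.8 tags in BALB and 39.7 and 37.2 in PWK but 1.76 and 4.31 in SPRET (block adjusted p = 0.0014). At the last 2 of the 5 regions SPRET had the lowest basal level. The Srek1ip1 region, 181 kb from that start, had 17.95 and 29.63 tags in basal SPRET cells and 227 and 114 after IL-4, whereas C57 went from 192 and 209 to 91.7 and 138 (block adjusted p = 1.2e-12). The Stk35 region went from 20.5 and 18.4 to 71.4 and 60.3 tags in SPRET and from 480 and 531 to 224 and 292 in NOD (block adjusted p = 4.5e-07). For Pol II, the regions with the smallest p lay 25.7 kb upstream of Lhx2 (block adjusted p = 0.094) and 19.2 kb upstream of Klrb1b (block adjusted p = 0.0066). The adjusted p of the unblocked limma interaction was 1.00 for the H3K27ac regions and 0.229 for both Pol II regions.

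**Figure D5:**
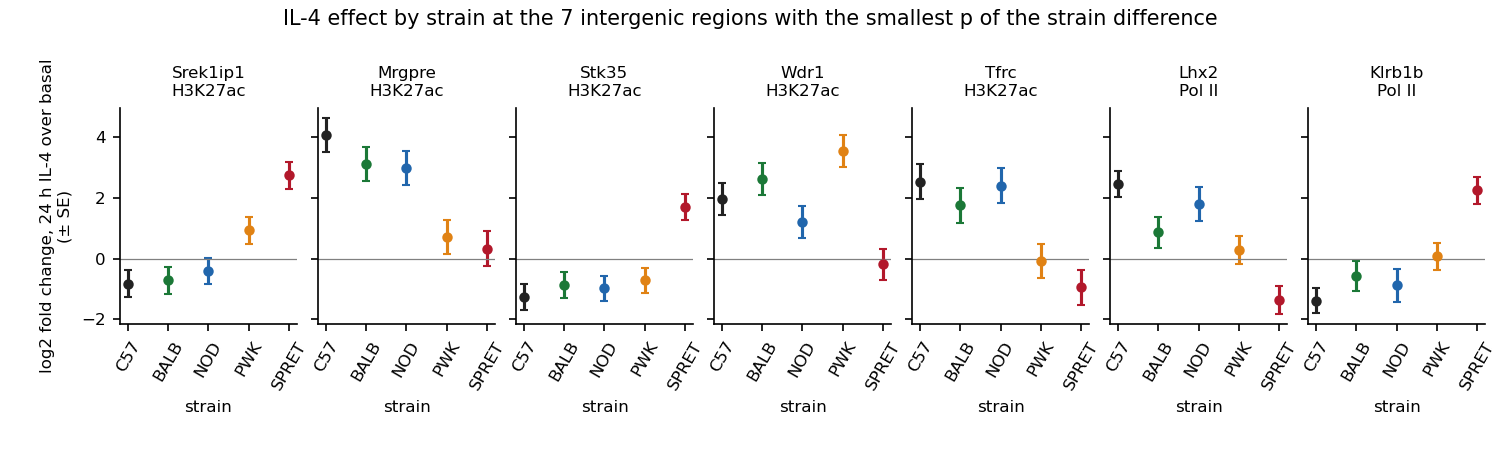
Log2 fold change of 24 h IL-4 over basal (± SE, limma) in each strain at the 5 intergenic regions with the smallest p of the strain difference for H3K27ac and the 2 for Pol II. At Tfrc, C57, BALB and NOD are at 1.76 to 2.54 while PWK and SPRET are at -0.08 and -0.94.

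Regions without a counterpart in the other tables were described by reads, with exact 95% intervals that cover counting error only. Each was picked as the largest rise or fall of its strain past the fold rule, so the folds are extremes by selection. All of the rises were at peaks of open chromatin called at 24 h but not in basal cells, which favours low basal values. The Pik3cg and Erich4 falls were at peaks called in basal cells only. The intervals do not allow for this selection. In SPRET, a region 7.20 kb upstream of Fbp1, a gluconeogenic enzyme, went from 1 to 368 H3K27ac reads over its libraries, a 480-fold rise after library size (interval 85.5 to 18993), at 0.85 and 0 tags before and 229 and 116 tags after IL-4. In BALB, a region 4.91 kb from Ang5 went from 2.94 and 2.38 to 395 and 130 tags (88.4-fold, 44.6 to 205). In PWK, a region 66.0 kb from Pmch went from 0 reads to 135 and 28.6 tags, at least 56.5-fold higher when the group is set to the 3 reads that a count of 0 allows. In NOD, a region 306 kb from Rora went from 1 to 114 reads (88.9-fold, 15.6 to 3541), and in C57 a region 16.2 kb from Kcnd3 from 3 to 114 reads (40.5-fold, 13.5 to 199). The paired libraries after IL-4 were far apart at the Ang5, Pmch, Rora and Kcnd3 regions. The largest falls of this kind were 1.03 kb from Pik3cg in C57 (0.171 of the basal level) and 160 kb from Tab2 in BALB (0.175). In NOD it was 882 kb from Zfp386 (0.125) and in PWK 5.78 kb from Tcf20 (0.140). SPRET had only 1 such fall, 4.535 kb from Erich4 (0.264).

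SPRET also had a block of intergenic regions with no counterpart. The 61 intergenic regions nearest to Cwc22 in SPRET spanned chr2:77869667-78050034, and 60 of them had no match. C57 had 2 intergenic regions nearest to this gene, BALB 3, NOD 4 and PWK 1. Basal Pol II in the 60 unmatched regions had a median of 15.99 to 33.87 tags over 3 SPRET libraries, against 6.85 to 9.68 over all SPRET intergenic regions, and basal H3K4me3 6.37 to 10.6 against 2.55 to 2.83 in 2 libraries. Basal H3K27ac was 21.4 and 24.8 against 19.1 and 19.7 tags. After IL-4, H3K27ac was 19.8 and 38.8 tags against 20.5 and 21.2, and H3K4me2 was 35.5 and 56.9 against 24.9 and 26.3. The copy number of this stretch in SPRET and the mapping of its reads were not examined, and the SPRET input libraries were not used. Their part in these regions and levels was not tested.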

How the data were processed

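ChIP-seq reads were aligned by the authors with Bowtie2 to strain genomes, with coordinates shifted to mm10. The deposited strain tables hold tag counts that the authors normalized with HOMER to 10000000 tags a library (tag signal per 1000-bp ATAC region, not raw counts); the deposited peak lists give coordinates and a peak score, used here for overlap only. Region starts and ends are given as in these tables. Whole reads were recovered for 100% of the values within 0.1 read, and edgeR 4.0.16 and DESeq2 1.42.0 were run on those reads as alternatives; the former called 906 higher and 2982 lower intergenic regions for H3K27ac. All 88 tag columns were assigned to a sample.

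Regions were matched across tables within 500 bp. Libraries were grouped by the labels. IL-4 effects were fitted by limma 3.58.1 (R 4.3.3) on log2(tags + 1) with strain as a factor, no filter on low values and no block, with adjusted p over all regions, and the fold changes are on that scale, which understates changes of low regions. Single values were tested by exact permutation over all arrangements (numpy 2.4.6). Levels were never compared between strain tables in a test; the strain difference compared the IL-4 contrasts, each taken within its table. Alternatives were a pseudocount of 5, a filter at a mean of 4 tags, median-ratio scaling, edgeR, DESeq2, a replicate block, matching within 100 bp and leaving out each library. The scripts were tested on simulated data with 200 changed regions. Replicates were compared by chi-square and 0 pairs were identical. Deviations of same-numbered libraries correlated at 0.31 to 0.59 for H3K27ac, 0.13 to 0.53 for Pol II and 0.11 to 0.39 for H3K4me2. These marks were taken as paired from the data. H3K4me3 was not, with 0.02 in NOD, though PWK reached 0.41.

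The tables name no nearest gene for intergenic rows, so the nearest protein-coding start was taken from GENCODE vM21 (GRCm38, the assembly of mm10), a change from the planned use of the authors' own names. Named regions were the 6 largest rises and falls for H3K27ac, the 3 for each other mark, the 5 and 2 smallest interaction p for H3K27ac and Pol II, the largest change without a match per strain and direction, and at most 4 called regions per gene list. Members, lists and tests were chosen with earlier results of these data known. The EGR2 time course and EGR2 knockout tag tables were not used here.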

Additional observations from a re-analysis of the deposited data

Results flagged for a closer look

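Basal Pol II in C57 was the only group with 4 libraries. It was tested for an outlying library on 52 values, and 1 library stood far from the other 3 in 7 of them. Chance flags about 1 in 20 independent groups, but these values share the same 4 libraries, so no count by chance is set beside them. The outlying library was the highest at 1700021F07Rik (7.09 tags), Pim3 (21.84 tags), Lrp12 (251.46 tags), Tfrc (42.43 tags), Slc7a2 (30.57 tags) and the Oasl1 region at chr5:114921549-114922549 (184.56 tags), and the lowest at the Nfkbiz region at chr16:55746969-55747969 (9.98 tags).

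All libraries of some strains moved one way and all libraries of another moved the opposite way at 5 regions. Only the 5 H3K27ac and 2 Pol II regions with the smallest p of the strain difference were searched. They were picked for differing between strains, so opposite directions there add no support. The strain pairs were not tested one by one. For H3K27ac at Srek1ip1 the log2 fold changes were -0.83 in C57, -0.71 in BALB and -0.41 in NOD, against 0.94 in PWK and 2.75 in SPRET. At Stk35 they were -1.26 in C57, -0.87 in BALB, -0.98 in NOD and -0.72 in PWK, against 1.70 in SPRET. At Tfrc they were 2.54 in C57, 1.76 in BALB and 2.41 in NOD, against -0.94 in SPRET. For Pol II at Lhx2 they were 2.46 in C57, 1.80 in NOD and 0.28 in PWK, against -1.37 in SPRET. At Klrb1b they were -1.39 in C57 and -0.88 in NOD, against 2.25 in SPRET.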

How the results depend on the processing

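No called value at a named region changed sign. The balance of calls for H3K4me2 turned over, from 197 higher and 5398 lower to 666 and 83 under median-ratio scaling, and the Pol II shift, not past the threshold, was -0.026 as reported and 0.019 over pairs. Of 1299 alternatives for 47 named regions and marks, 1290 kept direction and call and 9 lost the call, at Marcksl1 (H3K4me2) and Oasl1. The median intergenic region held 1.95 to 3.81 basal H3K4me3 tags, so small changes of that mark rest on few reads. The causes of the moves below were not tested.

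Median-ratio scaling gave 1533 higher and 1662 lower for H3K27ac, 666 and 83 for H3K4me2 and 93 lower for H3K4me3, and within strains 2 in C57, 0 in NOD and 43 in PWK. DESeq2, with its own size factors, gave 1628 and 1847 for H3K27ac, 651 and 74 for H3K4me2, 132 lower for H3K4me3, and within strains 959 in C57, 588 in NOD and 296 in PWK. edgeR gave 39 in NOD, 263 in PWK and 547 in SPRET. With the replicate block, Pol II was lower at 1788 (17.1% of all matched regions), and H3K4me3 was higher at 893 and lower at 826. For H3K4me3, deviations of same-numbered libraries correlated at 0.02 in NOD and up to 0.41 in PWK. The strain difference passed at 219, 5, 1 and 18 regions with the block. Within strains 8027 passed in C57, 1919 in BALB, 5637 in NOD, 2492 in PWK and 1493 in SPRET. A mean of at least 4 tags left 303 higher for H3K4me3 and gave 81 in NOD, and a pseudocount of 5 gave 36 in NOD.

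By the fold rule, induced regions with a pseudocount of 5 were 170, 273, 276, 224 and 129 in C57, BALB, NOD, PWK and SPRET, and repressed ones 163, 38, 105, 61 and 24. A fold of 2 gave 490, 692, 618 and 384 induced in C57, NOD, PWK and SPRET, and 900, 371, 721, 509 and 236 repressed in the 5 strains. H3K27ac alone gave 1028, 713, 1011, 763 and 604 induced and 1942, 1225, 1679, 890 and 212 repressed. Without the tag minimum 687 were induced in NOD.

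The H3K4me2 shift was 0.10 against intronic regions and 0.16 for regions at least 10 kb from a start, neither past the threshold, and 0.088 and 0.36 in the libraries numbered 1 and 2. The H3K4me3 shift was 0.095 against intronic regions, 0.14 beyond 10 kb and 0.15 with the replicate block, none past the threshold. Without C57 the shifts were 0.17 and 0.12, without SPRET 0.22 and 0.16, and for H3K4me3 0.16 without NOD and 0.12 without PWK, with the call lost in each.

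Leaving out 1 library at a time gave 832 to 924 higher and 2655 to 3306 lower for H3K27ac, 695 to 847 and 852 to 1223 for Pol II, 171 to 230 and 4720 to 5917 for H3K4me2, and 326 to 709 and 272 to 589 for H3K4me3. The strain difference passed at 0 for H3K27ac and Pol II, at 0 to 6 for H3K4me2 and at 0 to 1 for H3K4me3. Within strains the ranges were 0 to 127 in C57, 276 to 1694 in BALB, 0 to 812 in NOD, 0 to 702 in PWK and 0 to 124 in SPRET. Induced regions ranged over 268 to 438, 305 to 558, 426 to 500, 319 to 480 and 162 to 281 in C57, BALB, NOD, PWK and SPRET, and repressed ones over 331 to 503, 107 to 278, 210 to 524, 132 to 238 and 41 to 89. The shift was 0.0021 to 0.087 for H3K27ac, -0.091 to 0.040 for Pol II, 0.18 to 0.27 for H3K4me2 and 0.118 to 0.187 for H3K4me3, which lost its call in 13 of 20 cases.

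Libraries that moved a count by over 1.5 times were these. For H3K4me3 higher and lower, 359 and 296 passed without C57 24 h replicate 1, 366 and 318 without C57 basal replicate 1, 327 and 272 without NOD 24 h replicate 2, 357 and 277 without NOD basal replicate 2, 358 and 289 without PWK 24 h replicate 1, 326 and 303 without PWK basal replicate 2, and 322 lower without C57 basal replicate 2. The strain difference of H3K4me2 passed at 6 regions without BALB 24 h replicate 1, 3 without SPRET basal replicate 1 and 1 without PWK basal replicate 2, and that of H3K4me3 at 1 without PWK basal replicate 2. Within strains, leaving out basal replicate 1 or 2 gave 127 or 52 in C57, 276 or 368 in BALB, 812 or 733 in NOD, 357 or 702 in PWK and 43 or 124 in SPRET, while leaving out either 24 h library gave 0 in NOD, PWK and SPRET and 24 h replicate 1 gave 1694 in BALB. Repressed regions were 278 in BALB and 524 in NOD without Pol II 24 h replicate 1, and 41 in SPRET without Pol II basal replicate 1.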
